A study of Mus musculus with 2 samples.

Results

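The 8 genes described here encode the killing machinery of cytotoxic lymphocytes: the granzymes *Gzma*, *Gzmb*, *Gzmc*, *Gzmk* and *Gzmm*, perforin (*Prf1*), the granule membrane protein *Nkg7* and Fas ligand (*Fasl*). They were found by symbol, 8 of 8, among the 32589 genes listed for both libraries. The data are single-cell RNA-Seq of tumor-bearing mouse liver, with 1 library from shYT animals given PBS and 1 from shYT animals given anti–PD-1, and they address how the tumor microenvironment (TME) differs when immune checkpoint blockade is added to YAP/TAZ depletion. In both groups, cholangiocarcinoma (CCA) was started by hydrodynamic tail vein injection of plasmids for NICD, an activated Notch receptor, and myr-AKT, a membrane-bound active AKT kinase. In both, shRNAs against *Yap1* and *Wwtr1* (TAZ) were switched on by doxycycline from day 25, through an rtTA3 under the ubiquitous CAG promoter, so lymphocytes carried them too. Injections of the antibody (clone RMP1-14) fell on days 26, 29 and 32, and the animals were analysed on day 33. A library without YAP/TAZ depletion is not compared here. The labels name neither the shRNA line, the sex, the age nor the number of animals behind a library. The study gives several replicates per group for this experiment without stating their unit, but the barcodes carry no mark of an animal. Each library therefore counted as 1 sample. There was no replicate and no test between the groups. All intervals below are 95% counting intervals that leave out the differences between animals and preparations. Those of levels and ratios also take each counted transcript as independent and leave out the spread between cells, so they are too narrow where few cells hold most counts.

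Cytotoxic lymphocytes store perforin and granzymes in secretory granules and release them against a bound target cell. Perforin opens pores in the target membrane, and granzymes, which are serine proteases, enter and cleave proteins of the target. Fas ligand acts apart from the granules, by engaging the death receptor Fas. In liver, these genes are best known from conventional NK cells, from the tissue-resident type 1 innate lymphoid cells (ILC1s) and from activated CD8 T cells.

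Cells were kept if 500 to 5000 genes were detected and mitochondrial genes had no more than 10% of the UMIs (unique molecular identifiers, 1 per captured transcript), which left 15531 of 19397 barcodes with PBS and 16360 of 19451 with anti–PD-1, at median depths of 3159 and 2990 UMIs. A cell was given the class for which it held the most marker genes, and none of the 8 genes was a marker. The gates gave 521 NK cells and 3361 T cells with PBS and 635 and 3583 with anti–PD-1, 981 and 1369 of the T cells being CD8 T cells. The libraries differed in ways that accompany every comparison below. *Xist*, the RNA that silences an X chromosome in female cells, was counted 18452 times with PBS and 11 times with anti–PD-1, and Y-linked genes 3113 and 15323 times, so the PBS library mixed cells of both sexes and the other was nearly all male. Sex and treatment cannot be told apart except within male cells. Both libraries shared 145 barcodes among kept cells, of which 11 were T, NK or NKT-like in both. The targeted genes were sparse in the tumor/biliary gate, with *Yap1* at 9.83 CPM (counts per 1e6 UMIs of the class) with PBS and 11.6 with anti–PD-1, and *Wwtr1* at 12.7 and 6.61. No library here lacks the shRNAs, and the knockdown was not assessed. The first value of a pair is the PBS library's and the second the anti–PD-1 library's throughout.

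The genes lie on 5 chromosomes of mm10, and 4 of them lie in pairs. *Gzmb* (chromosome 14, 56258838 to 56262260, reverse strand) and *Gzmc* (14, 56231441 to 56234656, reverse) lie in 1 granzyme cluster, and *Gzma* (13, 113093825 to 113100981, reverse) lies near *Gzmk* (13, 113171608 to 113225908, reverse). *Gzmm* (10, 79689020 to 79695261, forward) and *Prf1* (10, 61297833 to 61304680, forward) share a chromosome only. *Nkg7* is at 43437073 to 43438249 of chromosome 7, forward, and *Fasl* at 161780689 to 161788495 of chromosome 1, reverse. The 250 bases before the RefSeq start of 4 genes (GRCm38.p6, the same coordinates as mm10) are printed 5′ to 3′ in the direction of the gene, because *Gzma*, *Gzmb* and *Prf1* were the secreted effectors that were higher together in NK cells, whereas *Gzmc*, the neighbour of *Gzmb*, was not. They are chr13:113100982-113101231 for *Gzma*, chr14:56262335-56262584 for *Gzmb*, chr14:56234658-56234907 for *Gzmc* and chr10:61297586-61297835 for *Prf1*. Capitals mark matches to the core of the Runx motif (TGTGGT on either strand), to AP-1 (TGANTCA) and to the cAMP response element or its first 6 bases (TGACGTCA, TGACGT).
Gzma: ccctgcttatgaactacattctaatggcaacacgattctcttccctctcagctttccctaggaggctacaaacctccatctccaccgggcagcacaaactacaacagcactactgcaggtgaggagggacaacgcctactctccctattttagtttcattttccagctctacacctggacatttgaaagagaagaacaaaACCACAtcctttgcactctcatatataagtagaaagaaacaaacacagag
Gzmb: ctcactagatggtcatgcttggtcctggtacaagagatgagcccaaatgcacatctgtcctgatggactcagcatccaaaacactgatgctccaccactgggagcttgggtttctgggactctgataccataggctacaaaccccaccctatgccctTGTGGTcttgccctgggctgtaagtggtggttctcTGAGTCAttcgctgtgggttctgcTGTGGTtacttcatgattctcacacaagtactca
Gzmc: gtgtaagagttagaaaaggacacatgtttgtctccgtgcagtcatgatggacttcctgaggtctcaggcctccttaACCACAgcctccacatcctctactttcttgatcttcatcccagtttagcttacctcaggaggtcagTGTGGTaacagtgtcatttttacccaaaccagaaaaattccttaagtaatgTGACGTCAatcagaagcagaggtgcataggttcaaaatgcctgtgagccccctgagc
Prf1: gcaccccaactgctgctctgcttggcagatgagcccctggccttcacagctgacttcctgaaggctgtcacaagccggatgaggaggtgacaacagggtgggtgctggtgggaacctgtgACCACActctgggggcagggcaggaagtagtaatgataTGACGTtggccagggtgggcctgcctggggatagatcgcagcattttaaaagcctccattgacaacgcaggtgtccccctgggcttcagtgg
Each of the 4 windows held a Runx core, 1 in *Gzma* and *Prf1* and 2 in *Gzmb* and *Gzmc*, which 14.0% of 32851 promoter windows of this length did. *Gzmb* alone of the 4 held an AP-1 match, 58 to 52 bases before the start, which 6.75% of windows did. *Gzmc* held the full cAMP response element, whose pair of overlapping 6-base matches spans 57 to 50 bases before the start, which 1.55% of windows did. *Prf1* held the 6-base form, 92 to 87 bases before the start, which 6.47% of windows did. Matches to T-box sites (GGTGTGA, 3.33% of windows), STAT sites (TTCNNNGAA, 7.02%) and a TATA box written as TATAAA (12.4%) were searched on both strands too and were in none of the 4. Among the genes not printed, *Nkg7* and the first window of *Gzmm* held a Runx core, and *Gzmk* and *Fasl* did not. T-box or STAT matches lay in *Gzmk*, *Gzmm* and *Nkg7*. A match describes these letters and not a bound site.

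Lymphocytes held most of the UMIs of every gene, and the genes divided between NK and CD8 T cells. NK cells, 3.35% of kept PBS cells and 3.88% of kept anti–PD-1 cells, held 50.1% and 47.5% of all *Gzma* UMIs, 48.7% and 50.9% of *Gzmc*, 41.5% and 38.6% of *Prf1*, and 38.3% and 30.8% of *Gzmb*. CD8 T cells held 70.6% and 62.5% of *Gzmk* and 48.8% and 46.7% of *Gzmm*. *Nkg7* and *Fasl* were spread more widely, with 31.4% and 38.3% of *Nkg7* and 22.3% and 25.4% of *Fasl* in CD8 T cells, and 17.5% and 15.4% of *Nkg7* and 18.0% and 21.0% of *Fasl* in NK cells. T, NK and NKT-like cells (2 or more NK markers and a *Cd3d*, *Cd3e* or *Trac* UMI) together held between 66.2% and 92.8% of a gene's UMIs with PBS and between 72.5% and 88.1% with anti–PD-1.

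**Figure D1:**
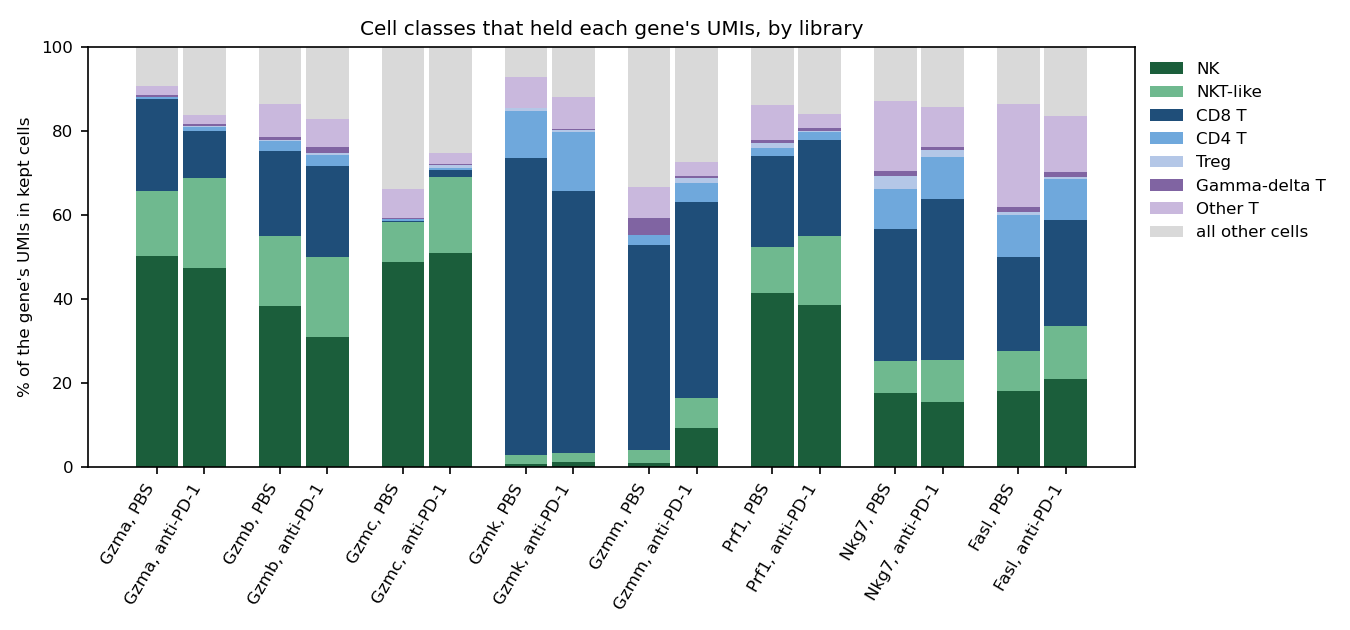
Share of each gene's UMIs in kept cells (vertical axis, %) that lay in each lymphocyte class, as stacked bars, 1 bar per gene and library, with the cells of all other classes in grey. NK cells are the largest part of the *Gzma*, *Gzmb*, *Gzmc* and *Prf1* bars, and CD8 T cells of the *Gzmk* and *Gzmm* bars.

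Among lymphocytes, the order of the classes was nearly the same in both libraries for *Gzma* and *Prf1*, but not for *Gzmb*. For *Gzmb*, CD8 T cells lay above γδ T cells with PBS and below them with anti–PD-1. For *Gzma*, the protease that dominates NK granules, NK cells came first (4077 and 5817 CPM), then NKT-like cells (2200.3 and 3516), and CD8 T cells came next with PBS (787) and lay below γδ T cells with anti–PD-1 (462 against 530.04, intervals overlapping). *Prf1* followed the same order in both, NK (389 and 607 CPM), NKT-like (176 and 349) and CD8 T cells (89.9 and 119), with γδ T cells (43.5 and 95.6) not separated from CD8 T cells by their intervals. *Gzmk* had its own order, CD8 T cells (231 and 189), then CD4 T cells (47.6 and 86.1), with NK cells (4.64 and 9.42, on 7 and 22 UMIs) behind all T cell classes. Intervals did not separate NK cells from regulatory or γδ T cells. NK cells exceeded CD8 T cells 5.18-fold and 12.6-fold for *Gzma*, 4.29-fold and 4.28-fold for *Gzmb*, 4.33-fold and 5.08-fold for *Prf1*, and 1.27-fold and 1.21-fold for *Nkg7*. For *Gzmk* CD8 T cells exceeded NK cells 49.8-fold and 20.1-fold. *Gzmm*, a granzyme known from innate lymphocytes in other settings, was scarce everywhere, with its highest sums 17.5 and 12.2 CPM in CD8 T cells and 24.1 in the 72 γδ T cells of the PBS library, on 5 UMIs.

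**Figure D2:**
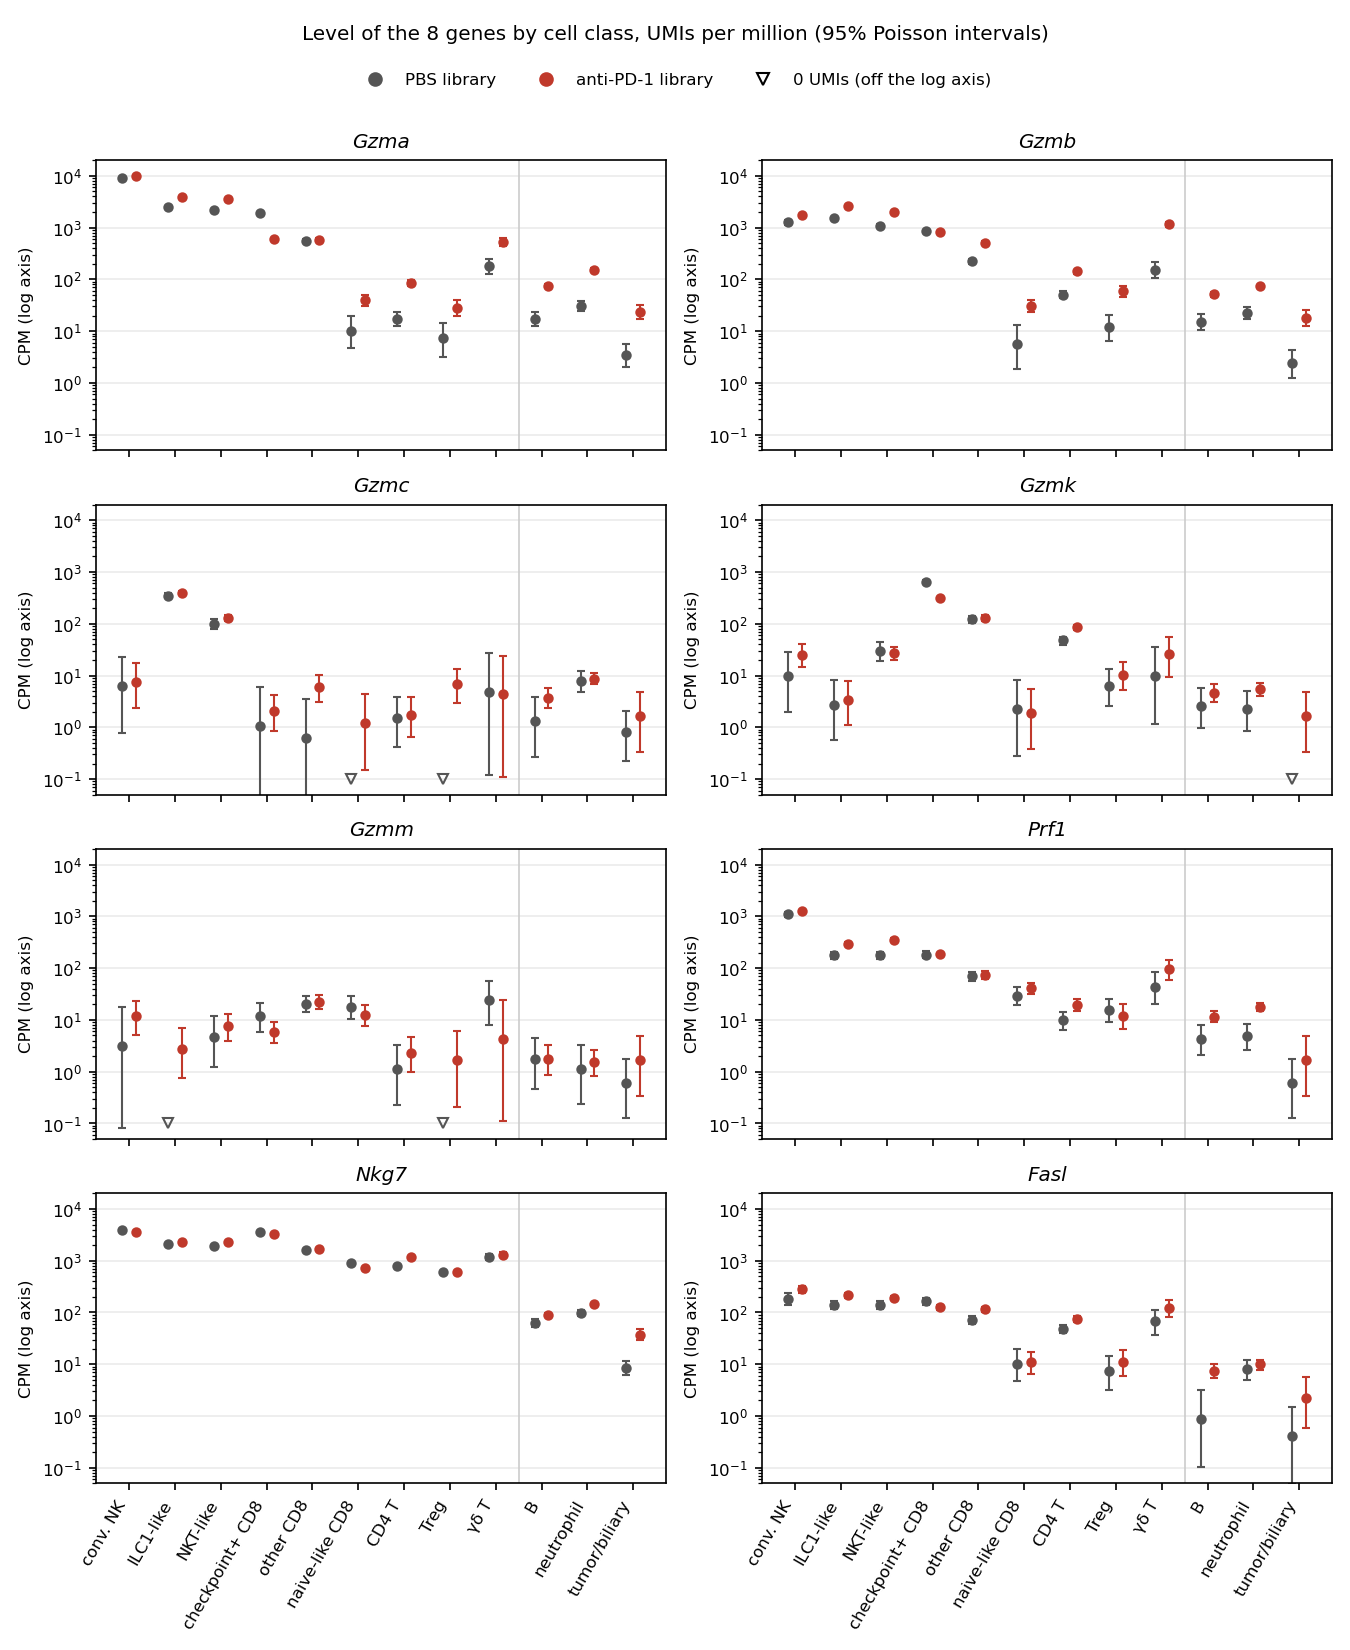
Level of each gene (vertical log axis, CPM) in 9 lymphocyte classes and, right of the grey line, in B cells, neutrophils and tumor/biliary cells, for the PBS library (grey) and the anti–PD-1 library (red), with 95% Poisson intervals and open triangles for 0 UMIs. The cells that should lack the genes lie far below NK cells for *Gzma*, *Gzmb*, *Prf1* and *Nkg7*, and hold more of *Gzma* and *Gzmb* in the anti–PD-1 library.

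Cells of classes not known to make these proteins also held UMIs, which sets the background from free RNA and doublets. With each cell thinned at random to 1000 UMIs, *Gzma* was found in 1.23% of B cells and 1.32% of neutrophils with PBS and in 3.54% and 4.64% with anti–PD-1. *Gzmb* was found in 0.616% and 0.662%, and in 3.20% and 3.78%. The background was thus higher in the anti–PD-1 library for both genes, and shares near these were not read as expression. For *Nkg7* the same classes gave 4.11% and 4.38%, and 5.88% and 6.88%.

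NK cells held more *Gzma*, *Gzmb*, *Prf1* and *Fasl* in the anti–PD-1 library, while *Nkg7* and *Gzmc* differed little. *Gzma* was 4077 CPM (3976 to 4180, 6145 UMIs) with PBS and 5817 CPM (5720 to 5916, 13586 UMIs) with anti–PD-1, for a log2 ratio of 0.51 (0.47 to 0.56). *Gzmb*, the caspase-activating granzyme, was 1451 and 2366 CPM, a log2 ratio of 0.71 (0.63 to 0.78). *Gzmc* was 291 and 268 CPM, with an interval of the log2 ratio that spans 0 (−0.29 to 0.07). In the sums over all NK cells, the proteases of NK granules therefore did not differ alike. *Prf1* was 389 and 607 CPM, a log2 ratio of 0.64 (0.50 to 0.78). *Fasl* was 151 and 237 CPM, a log2 ratio of 0.65 (0.43 to 0.88). *Nkg7*, which takes part in granule release, was 2519 and 2663 CPM, a log2 ratio of 0.08 (0.02 to 0.14). Perforin and Fas ligand thus stood close to *Gzmb* in ratio, and *Nkg7* close to 0. *Gzmk* (7 and 22 UMIs) and *Gzmm* (1 and 17 UMIs) were the only ones past 2-fold, at log2 ratios of 1.02 (−0.26 to 2.49) and 3.46 (0.78 to 8.84), and both were below the filter of a mean of 10 CPM. Without that filter, 34.6% of all genes with any UMI in NK cells were past 2-fold. Of the 8 genes, 7 were higher in the anti–PD-1 library, 6 passed the filter and 0 of these differed over 2-fold. Among all 8551 genes past the filter in NK cells, 8.4% differed over 2-fold in either direction. The median log2 ratio of the 8, with *Gzmk* and *Gzmm* included although below the filter, was 0.65, beside −0.16 over all genes past the filter.

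The defining T cell transcripts *Cd3d*, *Cd3e* and *Trac* were at 0 in the NK gate by its rule, while *Trbc1* was at 536 and 615 CPM. The NK receptor *Ncr1* was at 784 and 535 CPM. Other transcripts moved with the library in the same cells. Of 12 stress-response genes, a list added after the files were seen, 11 were higher with anti–PD-1, and their median log2 ratio was 0.70. The summed neutrophil markers, 6 of 6 detected in each library, were 140 CPM with PBS and 510 with anti–PD-1, and 6 B cell markers summed to 22.6 and 68.9. Their part in the results was not tested. Within male cells, taken as those having Y-linked UMIs but none of *Xist* (84 and 303 NK cells), the log2 ratios were 0.47 for *Gzma*, 0.75 for *Gzmb*, 1.12 for *Prf1* and 0.94 for *Fasl*, and *Gzmc* was lower, at −0.36 (−0.68 to −0.02). Cells with UMIs of 2 or more of 8 cell cycle genes, called cycling here, numbered 10 and 49 of the NK cells, and without them *Gzma* was 3903 and 5378 CPM and *Gzmb* 1461 and 2281.

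**Figure D3:**
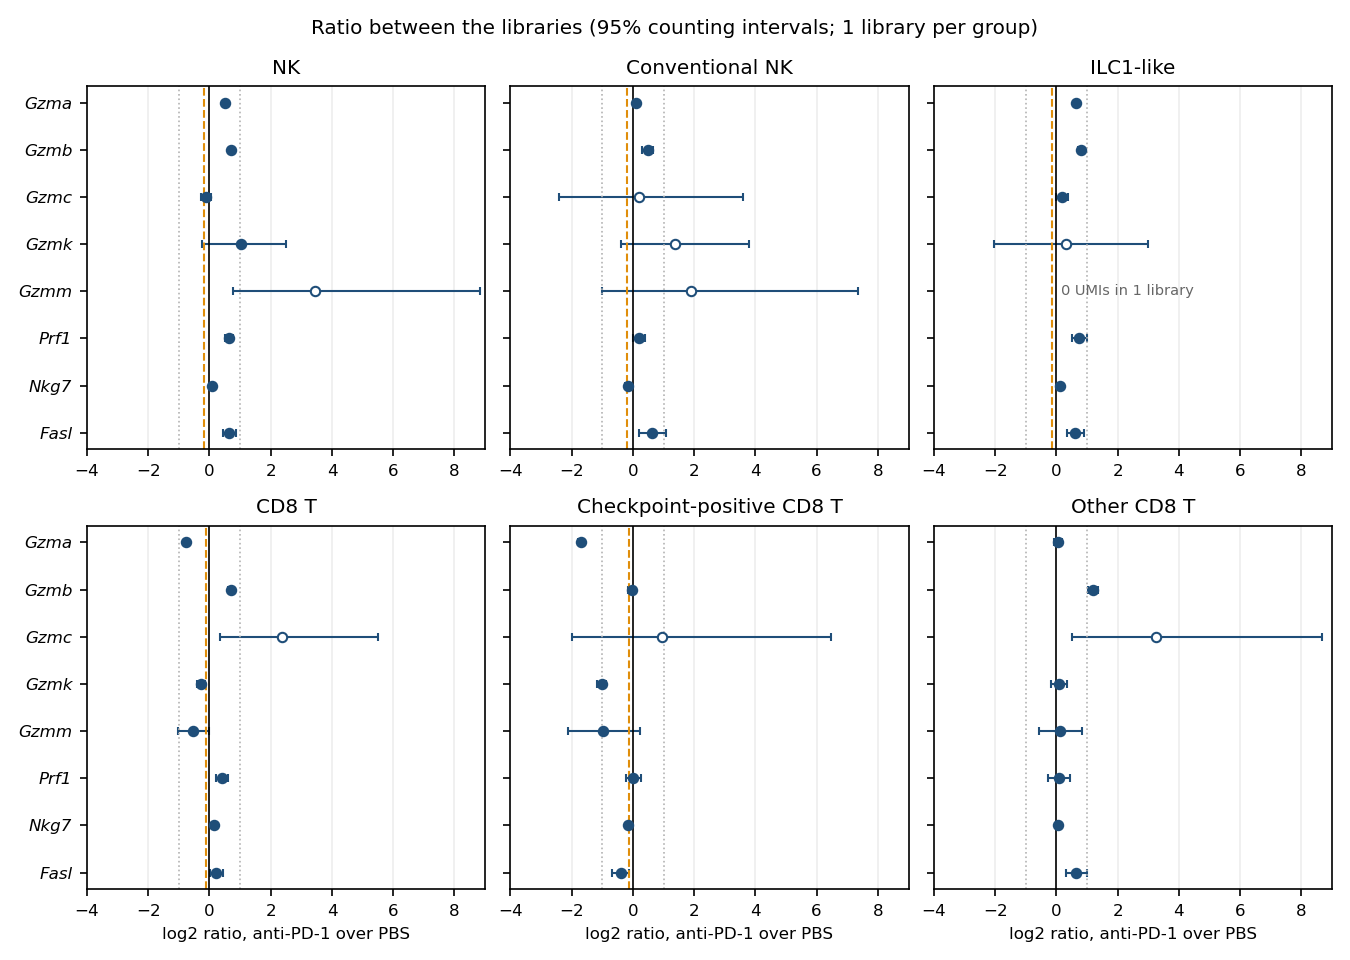
Log2 ratio of each gene, anti–PD-1 over PBS (horizontal axis), in 6 cell classes with 95% counting intervals, where open circles have 3 or fewer UMIs in a library, dotted lines mark 2-fold, and the dashed line is the median of all genes past the filter (not drawn for other CD8 T cells). In NK cells *Gzma*, *Gzmb*, *Prf1* and *Fasl* lie between 0.51 and 0.71, while in checkpoint-positive CD8 T cells *Gzma* lies at −1.69 and *Gzmk* at −1.02.

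The NK gate was divided by its other transcripts into conventional NK cells (144 and 197 cells) and ILC1-like cells (335 and 374), and 42 and 64 cells with as many markers of one as of the other were left in neither. Conventional NK cells gave 312987 of the 1507242 UMIs of the NK gate with PBS and 677367 of 2335543 with anti–PD-1. The mix of subsets behind the NK sums thus differed between the libraries, and its part in their ratios was not tested. By the rule, the transcription factor *Eomes*, a marker used for the split, was at 348 and 375 CPM in conventional NK cells. In ILC1-like cells it was at 5.5 and 4.8. Conventional NK cells held far more *Gzma* than ILC1-like cells, 3.65-fold with PBS and 2.49-fold with anti–PD-1, and more *Prf1*, 6.25-fold and 4.24-fold. The summed *Gzmb* was 1.20-fold and 1.50-fold higher in ILC1-like cells, although with PBS fewer of them held it at equal depth (48.3% against 55.8%). *Gzmc* was at 350 and 400 CPM in ILC1-like cells, at 6.39 and 7.38 in conventional NK cells (2 and 5 UMIs) and at 518 and 196 in the cells left in neither (55 and 39 UMIs). Its UMIs were held by few cells, the highest 5% of ILC1-like cells having 66.4% and 67.2% of them, compared with 34.3% and 31.3% for *Gzmb* and 15.2% and 16.4% for *Nkg7*.

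Between the libraries, ILC1-like cells went from 2494 CPM of *Gzma* (2401 to 2590) with PBS to 3930.4 CPM (3829 to 4033) with anti–PD-1, for a log2 ratio of 0.66. *Gzmb* was 1518 and 2643 CPM (0.80), *Prf1* 176 and 297 CPM (0.75) and *Fasl* 141 and 217 CPM (0.62). *Gzmc* had a log2 ratio of 0.19 (0.00 to 0.38) and *Nkg7* one of 0.13. All 7 genes with UMIs in both libraries were higher, although *Gzmc* and *Nkg7* were not on thinned cells (−0.52 and −0.0028), nor *Gzmc* in male cells (−0.082), nor *Gzmc* and *Gzmk* with each cell weighted equally (−0.088 and −0.95). Of the 6 past the filter 0 differed over 2-fold, beside 10% of all genes past it in this class. In conventional NK cells *Gzma* was 9112 CPM (8781 to 9453) and 9788 CPM (9554 to 10026), at a log2 ratio of 0.10, and *Prf1* was 1102 and 1262 CPM (0.20). *Gzmb* differed more, from 1262 to 1758 CPM (0.48), and *Fasl* from 182 to 280 CPM (0.62), while *Nkg7* was lower at 3946 and 3545 CPM (−0.15). Here 7 of 8 genes were higher, although *Gzma* was not on thinned cells (−0.014) or with each cell weighted equally (−0.022). *Gzmc*, on few UMIs, was not with at least 3 markers (−0.55) or with equal weights (−0.030), and *Nkg7* was higher with median-ratio scaling (0.042). Of the 6 past the filter 1 differed over 2-fold, *Gzmk* on 3 and 17 UMIs, beside 20.2% of all genes past it. The interval of its log2 ratio spans 0 (−0.40 to 3.80), and on thinned cells the ratio was 0.052. *Gzmm*, below the filter on 1 and 8 UMIs, did too, beside 43.9% of all genes with any UMI in the class. In male cells alone the log2 ratio of *Gzma* was 0.14 in ILC1-like and 0.32 in conventional NK cells and that of *Gzmb* 0.74 and 1.15, on 66 and 197 ILC1-like but only 13 and 83 conventional NK cells, so the size of each difference depended on which cells were taken. The difference between the 2 subsets in their ratios was not tested.

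Shares of cells were compared after thinning to 1000 UMIs, which removes the gap in depth (2521 against 3147 UMIs per NK cell) from the counts. The gates were set before thinning, so depth could still affect which cells were gated. *Gzma* was found in 54.8% of PBS and 62.8% of anti–PD-1 NK cells, a difference of 7.95 percentage points (2.19 to 13.7). *Gzmb* was found in 49.7% and 63.6%, a difference of 13.9 points (8.06 to 19.5), and before thinning in 63.7% and 79.7%. *Prf1* differed by 7.65 points (29.3% and 36.9%) and *Fasl* by 5.10 points (15.1% and 20.2%). In ILC1-like cells *Gzmb* was found in 48.3% and 65.3%, a difference of 17.0 points (9.64 to 24.1). In conventional NK cells nearly every cell held *Gzma* in both libraries (95.7% and 92.3%), and *Gzmb* was found in 55.8% and 61.9%, with an interval of the difference that spans 0 (−4.59 to 16.7 points). *Prf1* differed by 4.86 points in ILC1-like and 7.17 in conventional NK cells and *Fasl* by 5.04 and 7.25, each with an interval that spans 0. Cells with both *Gzma* and *Gzmb* were 34.6% and 46.9% of NK cells and cells with neither were 30.1% and 20.5%. *Gzmb* without *Gzma* was found in 23.0% and 25.2% of ILC1-like cells but in 0.725% and 1.03% of conventional NK cells. With the NK gate also set on thinned cells (403 and 533 cells), *Gzma* was found in 61.5% and 65.1%. *Prf1* was then found in 33.3% and 40.3% and *Fasl* in 15.1% and 19.7%, and for each gene the intervals of the shares overlap. *Gzmb* was then found in 50.1% and 63.4%, with intervals that do not overlap. Overlap of single intervals is a stricter rule than an interval of the difference, which was not computed for this gate.

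**Figure D4:**
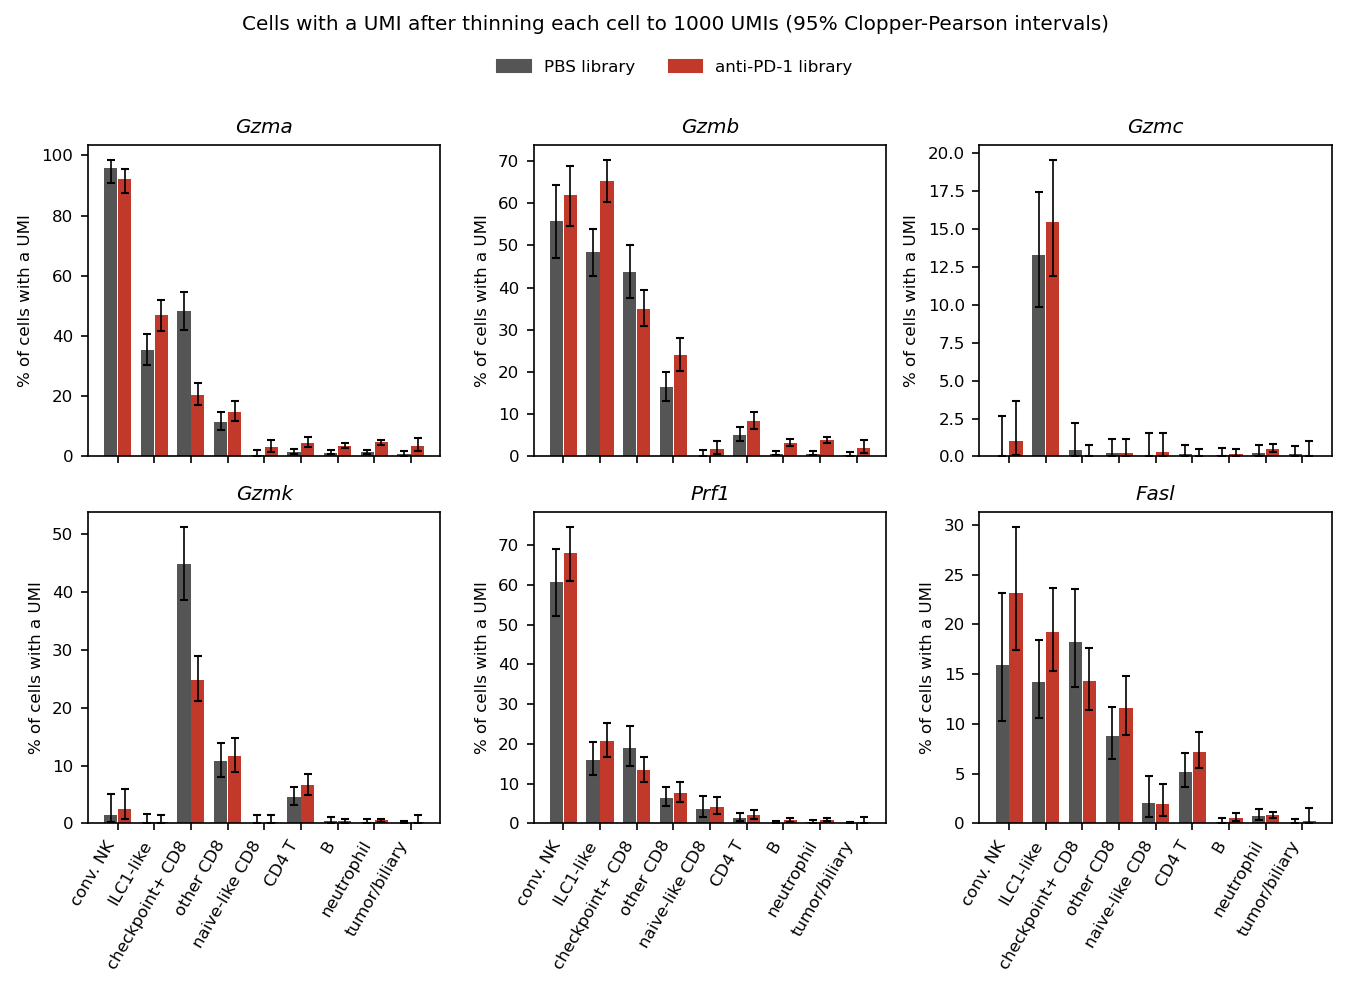
Cells with at least 1 UMI of a gene after each cell was thinned to 1000 UMIs (vertical axis, % of cells, a different scale in each panel), by class and library, with 95% Clopper-Pearson intervals. *Gzma* and *Gzmk* go from 48.4% to 20.5% and from 44.8% to 24.9% in checkpoint-positive CD8 T cells, and *Gzmb* differs from 48.3% to 65.3% in ILC1-like cells.

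In CD8 T cells, *Gzma* was lower and *Gzmb* higher in the anti–PD-1 library. *Gzma* was 787 CPM (757 to 817) with PBS and 462 CPM (446 to 478) with anti–PD-1, 1.70-fold lower. The highest 5% of CD8 T cells held 67.1% and 74.5% of its UMIs. *Gzmb* was 338 CPM (319 to 359) and 553 CPM (536 to 571), for a log2 ratio of 0.71. *Gzmk*, a granzyme of memory and early effector CD8 T cells, was 231 and 189 CPM, a log2 ratio of −0.29 (−0.42 to −0.16). The granzymes of CD8 T cells thus differed in opposite directions. *Gzmm* was 17.5 and 12.2 CPM on 60 and 85 UMIs, and *Gzmc* had 2 and 21 UMIs, a log2 ratio of 2.36 (0.33 to 5.50). *Prf1* was 89.9 and 119 CPM (0.41), *Nkg7* 1985 and 2206 CPM (0.15) and *Fasl* 82.0 and 95.9 CPM (0.23, 0.02 to 0.43). Of the 8 genes, 5 were higher and 3 were lower. With gates and sums on thinned cells, *Gzmm* (0.66), *Prf1* (−0.37) and *Nkg7* (−0.091) took the other sign. Of the 7 past the filter 0 differed over 2-fold, beside 5.18% of all 8419 genes past it. *Gzmc*, below the filter, did, beside 36.4% of all genes with any UMI in the class. The median log2 ratio of the 8, with *Gzmc* included although below the filter, was 0.19, beside −0.10 over all genes past it.

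CD8 T cells were deeper with anti–PD-1, at 4116 UMIs per cell in the median against 2878. After thinning, *Gzma* was found in 18.4% and 13.8% of CD8 T cells, a difference of −4.56 points (−7.66 to −1.54), and *Gzmk* in 16.9% and 13.5%, a difference of −3.41 points (−6.44 to −0.46). *Gzmb* was found in 19.4% and 22.1%, with an interval of the difference that spans 0 (−0.65 to 6.02). *Prf1* was found in 9.08% and 8.83% and *Fasl* in 9.60% and 10.02%, with intervals of the difference that span 0 (−2.67 to 2.08 and −2.08 to 2.84 points). Thinned to 2000 UMIs, the *Prf1* difference was 1.05 points, so no direction of its share was shown. With the gates also set on thinned cells, the log2 ratio of *Prf1* was −0.37 and that of *Gzmb* 0.28 (537 and 652 CPM). Among the markers of the gated cells, *Cd8a* was at 678 and 666 CPM, while the T cell receptor chains differed, *Trbc1* at 1382 and 928 and *Trbc2* at 1348 and 1855. *Il7r*, a receptor of memory and naive T cells, was at 549 and 359 CPM, and *Ncr1* was found on 2 and 19 UMIs. All 12 stress-response genes were higher with anti–PD-1 (median log2 ratio 0.85), the summed neutrophil markers were 115 and 573 CPM, and their part was not tested. In male cells alone (78 and 784) the log2 ratio was −0.78 for *Gzma*, 0.72 for *Gzmb* and −0.04 for *Gzmk*. Cells called cycling numbered 83 and 258, and the call goes with depth, at medians of 6578 and 7542 UMIs against 2806 and 3829 in the rest. Among the rest, *Gzma* was 692 and 381 CPM and *Gzmb* 327 and 381, and *Prf1* was 94.2 and 88.1. Among cells called cycling *Gzma* was 1249 and 636 CPM, and *Gzmb* 397 and 921.

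*Gzma* and *Gzmk* were over 2-fold lower in checkpoint-positive CD8 T cells, which held UMIs of 2 or more of *Pdcd1* (PD-1), *Lag3*, *Havcr2*, *Tigit*, *Tox* and *Entpd1* and numbered 253 and 507. *Gzma* was 1909 CPM (1821 to 1999.5) with PBS and 591 CPM (565 to 617) with anti–PD-1, 3.23-fold lower. *Gzmk* was 638 CPM (587 to 691) and 315 CPM (297 to 335), 2.02-fold lower. *Gzmb* was 851 and 828 CPM, with an interval of the log2 ratio that spans 0 (−0.15 to 0.08), and *Prf1* was 182 and 184 CPM (−0.23 to 0.27). In these sums *Gzma* and *Gzmk* were lower, while *Gzmb* and perforin did not differ beyond their counting intervals, unlike at equal depth. *Nkg7* was 3620.3 and 3222 CPM (−0.17) and *Fasl* 166 and 125 CPM (−0.40). Here 2 of the 8 genes were higher. Of the 6 past the filter 2 were over 2-fold lower, beside 11% of all genes past the filter that differed over 2-fold in either direction.

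The share of checkpoint-positive cells with *Gzma* after thinning was 48.4% and 20.5%, a difference of −27.9 points (−34.9 to −20.8). *Gzmk* was found in 44.8% and 24.9%, a difference of −20.0 points, and *Gzmb* in 43.7% and 35.0%, a difference of −8.66 points (−16.0 to −1.31). *Prf1* was found in 19.0% and 13.3%, a difference of −5.73 points (−11.7 to −0.28). Cells with *Gzma* and *Gzmb* together were 29.0% and 11.9%, cells with *Gzmb* alone of the pair were 14.7% and 23.1%, and cells with *Gzma* and *Gzmk* were 25.4% and 6.76%. The pairings with *Gzma* were thus fewer, and *Gzmb* without *Gzma* more common. The gate itself depends on depth, which was 2876 and 4998 UMIs per cell in the median. With the gate also set on thinned cells (92 and 129 cells), *Gzma* was 1446 and 938 CPM, *Gzmk* 783 and 419, *Gzmb* 1152 and 744, *Prf1* 304 and 109, and *Fasl* 217 and 109. *Gzma* and *Gzmk* thus stayed lower but neither was then past 2-fold. *Gzmb*, *Prf1* and *Fasl* were lower too. *Prf1* (log2 ratio −1.49, on 28 and 14 UMIs) and *Fasl* (−1.002, on 20 and 14 UMIs) were over 2-fold lower. The intervals of the *Fasl* levels overlap, and the share of all genes past 2-fold was not counted for these gates. With the gates set before thinning, the share of cells with *Fasl* differed by −3.94 points, with an interval that spans 0 (−9.87 to 1.48). In cells not called cycling (222 and 325), *Gzma* was 1763 and 616 CPM, *Gzmk* 653 and 325, and *Gzmb* 861 and 650.

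Checkpoint-positive cells stood above the other CD8 T cells (487 and 501 cells, neither checkpoint-positive nor, by their markers, naive-like) with PBS for 6 of the genes. The fold was 3.40 and 1.01 for *Gzma*, 3.80 and 1.61 for *Gzmb*, 5.25 and 2.44 for *Gzmk*, and 2.29 and 1.10 for *Fasl*. It was 2.62 and 2.50 for *Prf1* and 2.22 and 1.89 for *Nkg7*, and the differences between these folds were not tested. In shares after thinning, with the gates set before it, *Gzma* was found in 48.4% of checkpoint-positive and 11.6% of other CD8 T cells with PBS. With anti–PD-1 these shares were 20.5% and 14.9%. With the gates also set on thinned cells, which changes the cells in each class, *Gzma* was 1446 CPM in checkpoint-positive and 1184 in other CD8 T cells with PBS. With anti–PD-1 it was 938 and 737. The wider gap of *Gzma* with PBS was thus seen in the shares but not in these sums. That of other genes was seen in these sums. *Gzmb* was 1152 and 500 CPM with PBS and 744 and 714 with anti–PD-1, and *Gzmk* 783 and 279, and 419 and 232. *Prf1* was 304 and 114 CPM with PBS and 109 and 106 with anti–PD-1, and *Fasl* 217 and 114, and 109 and 148. In the other CD8 T cells *Gzmb* was 224 CPM (201 to 248) with PBS and 514 CPM (483 to 546) with anti–PD-1, for a log2 ratio of 1.20 (1.02 to 1.37), while *Gzma* was 562 and 587 CPM and *Prf1* 69.5 and 73.6. On thinned cells *Gzmb* was 500 and 714 CPM there, a smaller difference, and checkpoint-positive cells were 92 of 694 and 129 of 949 CD8 T cells.

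Over all T cells without the NKT-like cells, *Gzmb* was 159 CPM (152 to 167) with PBS and 376 CPM (366 to 386) with anti–PD-1, for a log2 ratio of 1.24, while *Gzma* was 270 and 275 CPM, with an interval that spans 0 (−0.04 to 0.09). With classes taken from clusters of cells instead, the log2 ratio of *Gzma* was 0.595. *Gzma* was lower in CD8 T cells and higher in each of the other T cell classes. In CD4 and regulatory T cells its levels were close to the background. With anti–PD-1, its level in the remaining T cells, assigned to no lineage, had an interval that overlaps that of neutrophils (166 and 155 CPM). *Prf1* was 42.5 and 67.7 CPM, *Nkg7* 1189 and 1546, *Gzmk* 89.6 and 115, and *Fasl* 65.8 and 84.2. Of the 8 genes, 6 were higher. Of the 6 past the filter 1, *Gzmb*, was over 2-fold higher, beside 4.25% of all 8679 genes past it. With gates and sums on thinned cells (258 and 469 CPM) it was not. The median log2 ratio of the 8, with *Gzmc* and *Gzmm* included although below the filter, was 0.36, beside −0.15 over all genes past it.

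NKT-like cells (235 and 363) lay between NK and CD8 T cells in level, with *Gzma* at 2200.3 and 3516 CPM (log2 ratio 0.68), *Gzmb* at 1090.4 and 1989 (0.87), *Prf1* at 176 and 349 (0.99) and *Fasl* at 140.0 and 191 (0.45). NK cells exceeded them 1.85-fold and 1.65-fold for *Gzma* and 2.21-fold and 1.74-fold for *Prf1*. For *Fasl* with PBS the interval of that ratio spans equality. *Gzmc* was 99.9 and 130.0 CPM, a log2 ratio of 0.38 (0.02 to 0.75). In CD4 T cells (715 and 806) *Gzma* was 17.3 and 84.9 CPM, but its thinned shares of 1.41% and 4.60% were close to those of B cells and neutrophils, and the level was not read as expression. *Gzmb* was 51.0 and 142 CPM there, with thinned shares of 5.08% and 8.33% that were above the background in both libraries. These shares differed by 3.26 points (0.72 to 5.78), beside 2.58 points in B cells and 3.11 in neutrophils. The difference between the libraries was thus close to that of the background and was not read as one of expression. *Gzmk* was 47.6 and 86.1 CPM and *Nkg7* 781 and 1187 in CD4 T cells. Regulatory T cells (246 and 240) had the lowest *Nkg7* of the T cell classes, 596 and 594 CPM, and *Gzmb* on 13 and 69 UMIs. In γδ T cells (72 and 63) *Gzmb* was 155 and 1160.0 CPM, on 32 and 267 UMIs, of which 57.7% lay in 4 cells of the anti–PD-1 library. The remaining T cells (1347 and 1105) were assigned to no lineage. By the rule they held no lineage transcript or conflicting ones, such as *Cd4* together with *Cd8a*. They had *Gzmb* at 118 and 312 CPM and *Gzma* at 67.1 and 166.

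The other genes of the pathway were read from lists chosen with earlier results of these data known, and their counts stand beside the 8.4% of all genes in NK cells and 5.18% in CD8 T cells that differed over 2-fold. The remaining granzymes of the *Gzmb* cluster (*Gzmd*, *Gzme*, *Gzmf*, *Gzmg* and *Gzmn*) were below the filter in NK and CD8 T cells. Of 5 genes of granule content and granzyme processing, 0 were past 2-fold in either class. *Srgn*, the proteoglycan core of the granule, was 1036 and 1797 CPM in NK cells and 706 and 1289 in CD8 T cells, whereas the cathepsin *Ctsw* was 1118 and 928, and 633 and 442. Of 6 genes of granule exocytosis, 1 was over 2-fold higher in each class, the syntaxin *Stx11* (19.2 and 47.5 CPM in NK cells, 14.3 and 39.1 in CD8 T cells), and the vesicle regulator *Lyst* was 105 and 56.5 CPM in NK cells. Of the genes listed as granzyme inhibitors, 2 of 4 were over 2-fold higher in NK cells and 1 of the 3 past the filter in CD8 T cells. Whether each of them inhibits a granzyme was not assessed. *Serpinb9*, which protects the killer cell from its own granzyme B, was 223 and 698 CPM in NK cells, a log2 ratio of 1.65, and 49.6 and 133 in CD8 T cells (1.43). *Serpinb6b* was 239 and 694 CPM in NK cells (1.54) and 86.4 and 159 in CD8 T cells (0.88). These inhibitors thus had larger ratios than *Gzma* and *Gzmb* in NK cells, while *Serpina3g* was lower there, at 548 and 407 CPM.

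Of 11 death ligands, receptors and target genes, 7 passed the filter in NK cells and 8 in CD8 T cells. *Ifng* (interferon-γ) was 181 and 399 CPM in NK cells (log2 ratio 1.14) and was also over 2-fold higher in CD8 T cells (2.40). *Bid*, a granzyme B substrate, was 35.2 and 15.4 CPM in NK cells, over 2-fold lower. Of 10 regulators, 0 were past 2-fold in either class. *Prdm1*, a factor of effector differentiation, had a log2 ratio of 0.76 in both. *Eomes*, which drives *Prf1* and *Gzmb* in effector cells, was 79.6 and 120.3 CPM in NK cells and 96.3 and 61.2 in CD8 T cells, and *Id2* was 785 and 450 CPM in CD8 T cells. The median log2 ratio of each list lay between −0.16 and 0.09 except for the inhibitors, at 0.92 in NK cells and 0.88 in CD8 T cells.

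Across the 36 sums of 18 classes in 2 libraries, which share library, depth and free RNA, the genes nearest to each of the 8 were ranked by the Pearson correlation of log2(CPM + 5), as a description. *Gzma* was nearest to *Prf1* (r = 0.91), *Klrc2* (0.91), *Klra3* (0.90), *Eomes* and *Klrc1*, and *Prf1* to *Eomes* (0.93), *Klra3* and *Heatr9* (0.92), *Gzma* and *Klrc1*. *Gzmb* was nearest to *Gzma* (0.87), *Txk* (0.84), *Prf1*, *Tbx21* and *Sytl3*. *Gzmc* was nearest to *Cpne7* (0.90), *Klrc3* and *Khdc1a* (0.88), and *Gzmk* to *Dapl1* (0.90), *Nsg2* and *Slc28a2b* (0.87). *Nkg7* was nearest to *Ms4a4b* and *Sh2d2a* (0.97), and *Fasl* to *Cd160* (0.97), *Apol7e* (0.96) and *Ifng* (0.95). *Gzmm*, the lowest in level, had its nearest gene, *Gm44174*, at 0.84. Among the 8 themselves, r ran from 0.16 for *Gzmc* with *Gzmk* to 0.91 for *Gzma* with *Prf1*.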

How the data were processed

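Single-cell RNA-Seq libraries (Singleron GEXSCOPE V2) were made from enzymatically digested, dead-cell-depleted livers, 1 per group, with groups taken from the labels. As deposited, the matrices hold raw UMI counts for each gene and barcode, which the authors made with the Singleron software against mm10. Its version, whether strand was used and what became of reads matching several genes are not given in the sources used here, so counts of near-identical granzymes are uncertain. The submitters' processing notes name Seurat 4.3. The libraries held 121713441 UMIs (PBS) and 100807037 UMIs (anti–PD-1).

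Kept cells (500 to 5000 genes, at most 10% mitochondrial UMIs) were classed by their most detected markers, at least 2, without integration or clustering. Sums of UMIs over a class in a library were expressed as CPM, with exact Poisson intervals. Ratios are anti–PD-1 over PBS with exact conditional binomial intervals and no pseudocount, and shares have Clopper-Pearson intervals. Intervals cover counting error only, at 95%. The background was the share of genes with a mean of 10 CPM or more that differed over 2-fold. Coordinates are from GENCODE vM21, in which 32445 (99.6%) of the gene identifiers were found, and promoters from RefSeq, in which 8 of 8 genes matched. Doublets scored from simulated pairs (422 and 647 cells, 2.72% and 3.95%) were kept, and left out in an alternative. Thresholds caught 32.6% and 42.7% of the simulated pairs, so doublets remain. All 8 genes and the fixed pathway lists are named, with genes of large ratio from the lists and up to 5 of the nearest genes by correlation. Values of 1 pathway gene are not reported here. The genes and lists were chosen with earlier results of these data known. Python 3.11.15 with numpy 2.4.6 and scipy 1.17.1 was used, and the script was tested on simulated data.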

Additional observations from a re-analysis of the deposited data

Results flagged for a closer look

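Some genes differed in opposite directions in different T cell classes. *Gzma* had a log2 ratio, anti–PD-1 over PBS, of −0.77 in CD8 T cells and 2.30 in CD4 T cells, where its share of cells was close to that of B cells and neutrophils. *Gzmk* was at −0.29 in CD8 T cells and 0.98 in the remaining T cells, which held no or conflicting lineage transcripts. *Gzmc* was at 0.38 in NKT-like cells and −0.89 in those remaining T cells. With 1 library per group, none of these differences between classes was tested.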

How the results depend on the processing

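Alternatives changed 1 step at a time in the 6 compared classes. Of 535 values (ratios and shares of single genes, and medians of the subsets), 421 stayed within their counting interval, and 41 took the other sign, 14 of them where the interval had excluded 0 and 27 where it had spanned 0. The median log2 ratio of the 8 genes in NK cells, 0.65, was 0.30 with gates and sums on thinned cells, 0.43 in classes from Leiden clusters, 0.81 with median-ratio scaling and 0.39 with each cell weighted equally. In CD8 T cells, 0.19 became 0.013 on thinned cells and −0.049 with equal weights. In all T cells, 0.36 became 0.50 in clusters, 0.56 in male cells, 0.50 with median-ratio scaling and 0.19 with equal weights. Without the filter on low genes, 34.6% of genes in NK cells, 36.4% in CD8 T cells and 32.6% in all T cells differed over 2-fold.

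Where the interval had excluded 0, the sign changes were as follows. On thinned cells, *Gzmm* (0.66), *Prf1* (−0.37) and *Nkg7* (−0.091) changed in CD8 T cells, *Gzma* in conventional NK cells (−0.014), and *Gzmc* (−0.52) and *Nkg7* (−0.0028) in ILC1-like cells. With equal weights, *Prf1* was −0.15 in CD8 T cells, *Gzma* −0.022 in conventional NK cells and *Gzmc* −0.088 in ILC1-like cells. In male cells, *Gzmc* was −0.082 in ILC1-like cells, and *Nkg7* 0.42 and *Fasl* 0.54 in checkpoint-positive CD8 T cells, on 11 PBS cells. *Nkg7* was −0.0028 in NK clusters, and 0.042 in conventional NK cells with median-ratio scaling. Among those whose interval had spanned 0, *Prf1* in checkpoint-positive cells went from 0.017 to −1.49 on thinned cells, *Gzmc* in all T cells from −0.48 to 1.17 in clusters, *Gzmm* in all T cells from −0.072 to 0.97 on thinned cells and *Gzmk* in NK cells from 1.02 to −0.16 with equal weights. The causes were not tested. Over these alternatives, *Gzmb* stayed between 0.62 and 0.87 in NK cells and between 0.28 and 0.86 in CD8 T cells. *Gzma* stayed between 0.20 and 0.68 in NK cells and between −0.82 and −0.56 in CD8 T cells. In checkpoint-positive cells it stayed between −2.18 and −0.62. The split by cell cycle genes was not among the alternatives. In CD8 T cells not called cycling, *Gzmb* was 327 and 381 CPM, and in those called cycling it was 397 and 921. Leaving out the barcodes found in both libraries, an alternative chosen after seeing the data, changed no sign. Clusters were not used for the subsets. No paired analysis was possible because each group has 1 library, and for the same reason no replicate could be left out. Genes with few UMIs, *Gzmm* and *Gzmc* in CD8 T cells and *Gzmk* in NK cells, could not be compared finely at this depth.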

Other observations

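Granzyme UMIs outside T and NK cells were looked at after the values were seen. With anti–PD-1, *Gzma* had 1326 UMIs in 317 of 3335 neutrophils, 276 of them in 1 cell, and 898 in 435 of 3469 monocytes or macrophages, 142 of them in 1 cell. Mast cells or basophils (24 and 18 cells by their markers) held *Gzmb* on 4 UMIs in 1 cell of the PBS library and on 184 UMIs in 7 cells of the anti–PD-1 library, 63 of them in 1 cell. Of those 7 cells, 2 held a T or NK marker. In endothelial cells *Gzmc* had 96 UMIs in 4 cells of the PBS library, 84 of them in 1 cell, and 19 UMIs in 1 cell of the anti–PD-1 library.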
